A study of Mus musculus with 22 samples.

Results

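The genes described are 53 mouse genes of the Wnt pathway, fixed as a list of ligands, receptors, secreted inhibitors, R-spondins, intracellular or membrane regulators and TCF/LEF transcription factors, out of 21887 protein-coding genes. They were chosen by pathway and not by a limit on any measured value, though earlier results of these data were known. All 53 were found in the mm10 gene table. By role there were 18 Wnt ligands, 14 receptors, 7 secreted inhibitors, 3 R-spondins, 7 intracellular or membrane regulators and 4 TCF/LEF factors.

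Wnt ligands are secreted proteins that bind Frizzled receptors and the coreceptors LRP5 and LRP6. Binding stops the destruction complex, which contains Axin and APC, from degrading β-catenin, and β-catenin then acts on target genes with TCF/LEF factors. In the intestine this pathway keeps crypt stem cells dividing, R-spondins raise it through LGR receptors, and RNF43 and ZNRF3 lower it by removing Frizzled proteins from the cell surface. PCGF6 is a RING finger protein of a variant Polycomb repressive complex 1 (PRC1), RING1B carries the ubiquitin ligase activity of such complexes, and H2AK119ub1 is the ubiquitin group they add to histone H2A.

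Chromatin immunoprecipitation and sequencing (ChIP-seq) peak lists were compared between small intestinal crypts of wild-type (WT) C57BL/6 mice and of mice with loss of Pcgf6 (knockout, KO), in 2 Cre lines. In AhCre crypts, Cre sits behind a promoter that β-naphthoflavone (BNF) switches on, and PCGF6, RING1B and H2AK119ub1 were profiled. In Villin crypts, Cre sits behind a promoter of the intestinal epithelium and is activated by tamoxifen, and RING1B, H2AK119ub1, CTCF (an insulator protein) and RAD21 (a cohesin subunit) were profiled. PCGF6 and RING1B lists of WT embryonic stem cells (ESC, line E14) stand beside them. For RNA of the same study the animals were given as males of 8 to 12 weeks, taken 7 days after the inducing agent, and the labels do not extend this to the crypts used for ChIP. The labels do not say whether WT crypts carried Cre or received the agent. The label gives the cells as intestinal epithelial, and chromatin of a crypt preparation is an average over the cells in it, so fewer cells with a mark and less of the mark per cell cannot be told apart.

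With 1 library in each group, spread between replicates could not be measured and no test was made. Each of the 16 lists gives peaks with a score, the −log10 of a p or q value (which of them was not stated), and every score was 10 or more. The lists hold no read counts, so depth is unknown, and a peak missing from a list may lie just under that limit. Scores were not scaled between libraries, so a lower score in another library is not by itself less binding. The lists ranged from 1662 peaks (RING1B in AhCre KO crypts) to 32651 (CTCF in WT crypts). The PCGF6 list held 17163 peaks in WT and 4779 in KO crypts, and the peak at Pcgf6 itself had a score of 20.8 in WT and was not in the KO list. What the PCGF6 antibody bound at the peaks of the KO list was not tested. In the WT H2AK119ub1 lists, 5 of 10 mesenchyme markers and 2 (AhCre) or 1 (Villin) of 8 crypt epithelium markers had a peak. Of immune markers 0 of 4 had one in either line, and of endothelium markers 0 of 3 (AhCre) and 1 of 3 (Villin). The share of all genes was 16% (AhCre) and 10.4% (Villin). In the WT PCGF6 list, 2 of 10 mesenchyme and 6 of 8 crypt epithelium markers had a peak, against 39.9% of all genes. That list had a peak at 0 of 4 immune and 0 of 3 endothelium markers. These counts do not show which cells carried a peak, and the part of other cells in the results was not tested. A peak was assigned to each gene with an end less than 1 kb away, and a gene's score is that of the strongest peak so assigned. A gene lost its peak when the window held a WT peak and no KO peak, and none of those WT peaks touched a KO peak elsewhere. It was gained in the opposite case.

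The promoters below are those of members on which the results turn. Axin2, Fzd1, Fzd4 and Fzd9 lost a PCGF6 or RING1B peak that lay over the printed bases in WT crypts, and Wnt1 and Lef1 had RING1B in all 4 crypt lists. Each line gives the 250 bases before the start site, 5′ to 3′ on the gene's strand, from RefSeq (GRCm38.p6, which is mm10), and capitals mark a motif named further on.
Axin2 (chr11:108920099-108920348, plus strand): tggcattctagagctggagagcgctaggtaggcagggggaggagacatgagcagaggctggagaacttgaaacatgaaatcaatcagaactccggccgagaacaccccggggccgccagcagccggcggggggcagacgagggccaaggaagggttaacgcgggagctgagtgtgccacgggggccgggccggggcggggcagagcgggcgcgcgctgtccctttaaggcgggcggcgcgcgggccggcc
Fzd1 (chr5:4758217-4758466, minus strand): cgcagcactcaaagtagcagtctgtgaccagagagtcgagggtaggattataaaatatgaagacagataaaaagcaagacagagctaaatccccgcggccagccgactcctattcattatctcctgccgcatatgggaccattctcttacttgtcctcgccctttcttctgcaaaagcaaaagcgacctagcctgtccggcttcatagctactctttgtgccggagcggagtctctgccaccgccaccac
Fzd4 (chr7:89404116-89404365, plus strand): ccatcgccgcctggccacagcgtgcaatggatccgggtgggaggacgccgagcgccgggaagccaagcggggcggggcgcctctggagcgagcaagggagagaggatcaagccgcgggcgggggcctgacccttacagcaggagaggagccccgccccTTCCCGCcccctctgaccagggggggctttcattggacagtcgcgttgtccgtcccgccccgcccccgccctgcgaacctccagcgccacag
Fzd9 (chr5:135251048-135251297, minus strand): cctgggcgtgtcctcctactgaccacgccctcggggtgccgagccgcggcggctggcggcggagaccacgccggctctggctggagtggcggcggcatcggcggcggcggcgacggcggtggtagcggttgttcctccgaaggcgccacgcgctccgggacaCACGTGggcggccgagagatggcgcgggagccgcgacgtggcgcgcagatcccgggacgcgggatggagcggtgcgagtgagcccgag
Wnt1 (chr15:98789607-98789856, plus strand): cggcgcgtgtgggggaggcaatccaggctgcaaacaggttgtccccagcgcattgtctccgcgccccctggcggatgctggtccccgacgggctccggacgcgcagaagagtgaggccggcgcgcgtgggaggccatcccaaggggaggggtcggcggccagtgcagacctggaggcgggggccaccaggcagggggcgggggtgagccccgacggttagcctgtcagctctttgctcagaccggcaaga
Lef1 (chr3:131110047-131110296, plus strand): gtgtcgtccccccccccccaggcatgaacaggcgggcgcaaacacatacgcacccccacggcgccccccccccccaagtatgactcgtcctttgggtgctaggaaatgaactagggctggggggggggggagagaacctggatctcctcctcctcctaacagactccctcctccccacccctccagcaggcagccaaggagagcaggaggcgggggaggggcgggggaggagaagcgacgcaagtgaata
The promoter table lists 46 start sites for 36 of the 53 members. Their upstream sequences held a median of 18.5 CpG dinucleotides and 66.6% G or C, against 6.0 and 52.4% over all 32851 listed promoters. The letters CACGTG, the E-box read by MAX and its partners, stood in 3 of the 46 (Fzd9, Wnt9a and a downstream start site of Lef1) and in 6.02% of all. TTCCCGC, an E2F-type motif, was searched on both strands and stood in 2 (Fzd4 and Sfrp5) and in 3.82% of all. CTTTGAT, a TCF/LEF-type motif, also on both strands, stood in 2 (Wnt11 and Wnt5b) and in 3.21%. No motif contains another, and the matches are descriptions of sequence only.

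In WT crypts the ligand genes were mostly marked with H2AK119ub1, at 16 of 18 in AhCre and 15 of 18 in Villin crypts, and 3 of 18 had PCGF6. The receptor genes had PCGF6 at 10 of 14 and RING1B at 10 of 14 in Villin but 4 of 14 in AhCre crypts, while H2AK119ub1 lay at 7 and 6 of 14. Among all 53 members, H2AK119ub1 lay at 32 in AhCre WT crypts (16% of all genes) and at 29 in Villin WT crypts (10.4% of all genes). RING1B lay at 16 members in AhCre WT (7.74% of all genes) and at 27 in Villin WT crypts (14.2%). PCGF6 lay at 21 of 53 members, or 39.6%, and at 39.9% of all genes, so its share in the whole list was near the background. In KO crypts the counts of members were 35 with H2AK119ub1 in AhCre (17.7% of all genes) and 29 in Villin (8.85%), 14 with RING1B in AhCre (4.89%) and 15 in Villin (7.61%), and 6 with PCGF6 (13.7%).

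**Figure D1:**
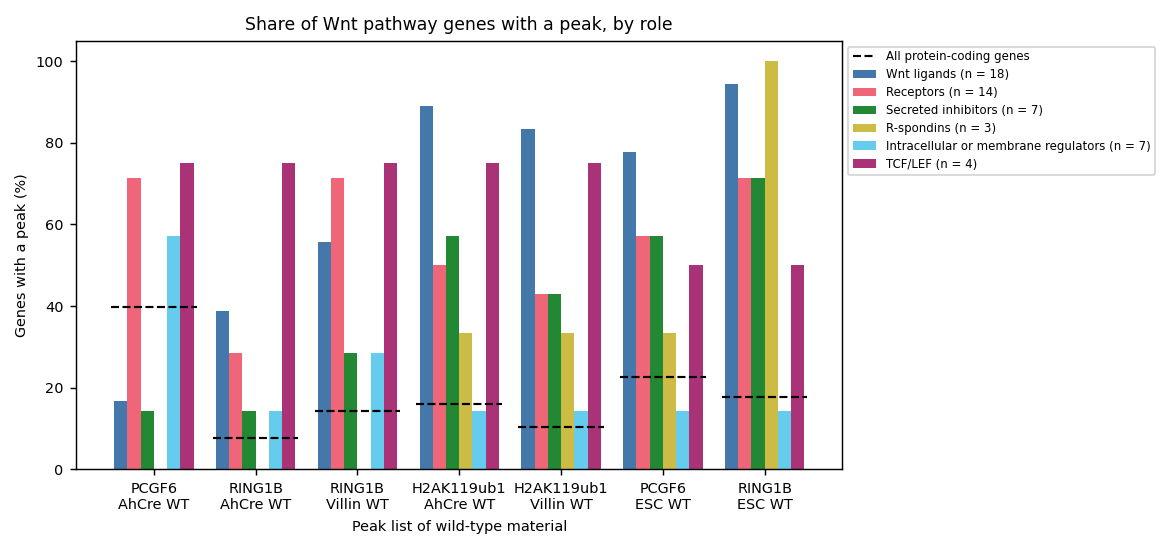
Share of genes with a peak within 1 kb of a gene end (y axis, percent) in 7 lists of WT material (x axis), with 1 bar per role and a dashed line at the share of all protein-coding genes. Ligands reach 88.9% for H2AK119ub1 in AhCre crypts and receptors 71.4% for PCGF6 in crypts, against 16.7% of ligands for PCGF6.

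The other roles were smaller groups. Secreted inhibitors had H2AK119ub1 at 4 of 7 (AhCre) and 3 of 7 (Villin), RING1B at 1 and 2 of 7 and PCGF6 at 1 of 7. The regulators inside the cell or in its membrane had PCGF6 at 4 of 7, RING1B at 1 and 2 of 7 and H2AK119ub1 at 1 of 7 in either line. TCF/LEF genes had PCGF6, RING1B and H2AK119ub1 at 3 of 4 in each WT crypt list of these antibodies. R-spondin genes had no PCGF6 and no RING1B peak in crypts, and H2AK119ub1 at 1 of 3 (Rspo1). No peak of any of the 16 lists lay at Wnt8b, Lrp6, Dkk3 or Axin1, that is 4 of 53 members, against 37.2% of all genes.

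**Figure D2:**
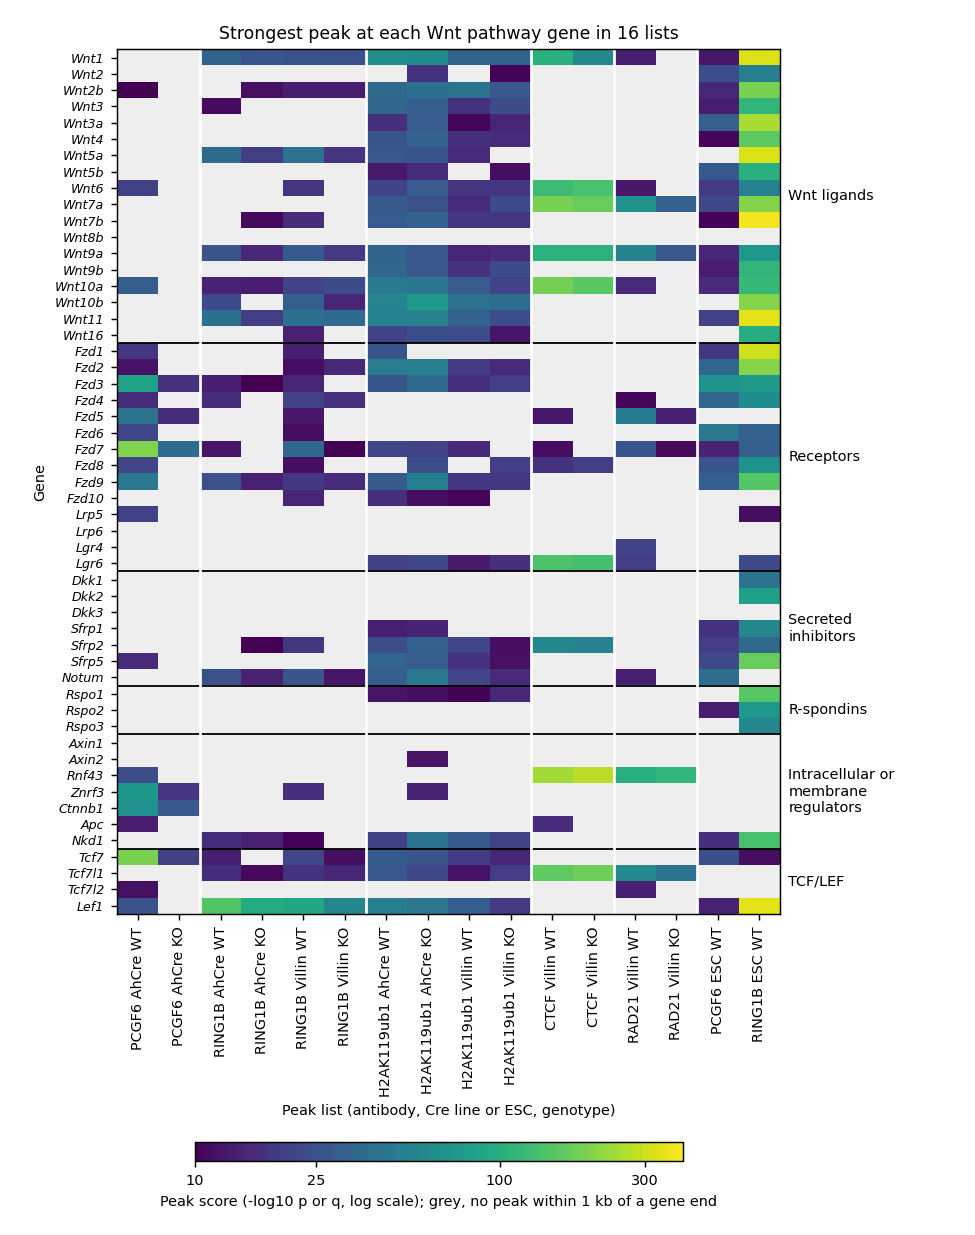
Score of the strongest peak (colour, log scale, −log10 p or q) for the 53 genes (rows, grouped by role) in the 16 lists (columns), with grey where no peak lay within 1 kb of a gene end. The ligand rows are filled in the H2AK119ub1 columns and mostly grey in the crypt PCGF6 columns, and Lef1 has the strongest crypt RING1B peaks (147 in AhCre WT).

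Among the ligands, Wnt1, the founding member, and Wnt11 and Wnt5a, which act largely without β-catenin, had RING1B peaks in all 4 crypt lists. RING1B scores at Wnt1 (chr15:98789857-98793830) were 33.0 in WT and 26.9 in KO of AhCre crypts, and 24.8 and 25.4 in Villin crypts. At Wnt11 the AhCre scores were 38.8 (WT) and 19.7 (KO), and the Villin scores 38.4 and 36.4. Those at Wnt5a were 37.0 and 19.8 in AhCre crypts, with 39.6 and 17.7 in the Villin line. In 5 of the 6 pairs the KO score was the lower. Of all genes with both RING1B peaks, 76.8% (AhCre) and 79.1% (Villin) had the lower score in KO. Wnt9a had RING1B scores of 26.2 and 15.0 in the AhCre line and 28.4 and 18.5 in the Villin line. Wnt10a, a ligand of skin and tooth development, had 14.5 and 13.4 in the AhCre line and 21.3 and 23.2 in the Villin line. These 5 ligand genes belong to the 9 members with RING1B in all 4 crypt lists, a state found at 3.56% of all genes.

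The remaining ligand genes with RING1B in crypts had it in some lists. Wnt10b, the neighbour of Wnt1 on chromosome 15, had a score of 23.0 in AhCre WT and no peak in AhCre KO, but 30.0 in WT and 14.8 in KO of Villin crypts. Wnt3, which Paneth cells supply to crypt stem cells, had 11.1 in AhCre WT and no peak in the other 3 lists. Wnt6 had 17.6 and Wnt16 had 14.1 in Villin WT crypts, and at the gene ends neither had a peak in another RING1B crypt list. The start site of Wnt6, which its gene ends miss, also had RING1B at 10.0 in AhCre WT. The peaks of Wnt3, Wnt6 and Wnt16 thus appeared in a WT list and in no KO list, at scores under 20. Wnt2b went from no peak to 11.6 in AhCre crypts and stood at 13.6 in both Villin genotypes. Wnt7b had 10.8 in AhCre KO and 15.9 in Villin WT crypts, with no peak in AhCre WT or Villin KO.

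H2AK119ub1 scores of the 16 marked ligand genes in AhCre WT crypts ran from 13 (Wnt5b) to 62.1 (Wnt1) with a median of 30.9. In Villin WT crypts they ran from 10.6 (Wnt3a) to 41.2 (Wnt2b) with a median of 17.3. At Wnt1 the 4 scores were 62.1 and 59.6 in AhCre WT and KO and 32.5 and 32.3 in Villin WT and KO. At Wnt10b they were 53.8 and 73.0, then 39.4 and 37.6. So RING1B had no peak at Wnt10b in AhCre KO crypts while the H2AK119ub1 score there was higher than in WT. Wnt11 had the widest H2AK119ub1 peak of all members, 12479 bp in AhCre WT and 12477 bp in AhCre KO, and 7407 and 8568 bp in Villin WT and KO. Wnt3 and its neighbour Wnt9b were served by a peak that lay within reach of both, in each of the 4 H2AK119ub1 and both ESC lists. PCGF6 scores of ligand genes in WT crypts were 29.6 at Wnt10a, 20.7 at Wnt6 and 10.1 at Wnt2b, and none of them had a KO peak. The Wnt6 peak lay at a gene end and not within 1 kb of its listed start site.

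Among the receptors, the Frizzled genes carried most of the signal. Fzd7, a Wnt receptor of intestinal stem cells (chr1:59482147-59486955), had the strongest PCGF6 peak of all members, with a score of 197 in WT and 36.1 in KO crypts. Its RING1B scores were 12.3 in AhCre WT and none in AhCre KO, and 34.6 and 10.2 in Villin WT and KO. Its H2AK119ub1 scores were 21.6 and 20.6 in AhCre crypts, and 15.2 and none in Villin WT and KO. At Fzd7 the KO value was the lower or missing in all 5 of these comparisons. Fzd3 had PCGF6 scores of 84.7 and 17.2, RING1B scores of 13.6 and 10.1 in AhCre, and of 14.7 and none in Villin crypts. Its H2AK119ub1 scores were higher in KO in both lines, 26.2 and 35.2 in the AhCre line and 16.5 and 19.9 in the Villin line. Fzd9 had PCGF6 at 43.6 in WT and none in KO, with RING1B at 25.1 and 14.1 in AhCre crypts and at 18.2 and 16 in the Villin line. Fzd9 therefore kept RING1B in AhCre crypts, where its PCGF6 peak was lost, and also in Villin crypts, where PCGF6 was not profiled. Its H2AK119ub1 scores were 28.3 and 49.2 in AhCre crypts, with 18 and 18.2 in the Villin line.

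Fzd4, Fzd5 and Fzd6 had RING1B in at least 1 crypt list and H2AK119ub1 in none, 3 of 53 members and 7.18% of all genes. Fzd4 had PCGF6 at 15.6 and no KO peak, and RING1B at 16.3 and none in AhCre but 20.7 and 17.2 in Villin crypts. Fzd5, which is needed for Paneth cell maturation, had PCGF6 at 40.9 and 16.2 and RING1B at 12.9 in Villin WT crypts. That Villin peak overlapped a KO peak outside the window and was not counted as lost. Fzd1, Fzd6 and Fzd8 had PCGF6 in AhCre WT crypts, at 17.9, 21.8 and 21.7, and each lost it in AhCre KO. These 3 genes had no RING1B peak in AhCre crypts. In Villin WT crypts, where PCGF6 was not profiled, their RING1B scores were 13.6, 11.4 and 11.4, and each of these peaks was lost in Villin KO. The PCGF6 and RING1B losses at these 3 genes therefore come from different Cre lines. Fzd2 lost PCGF6 (12.0) and had Villin RING1B scores of 11.3 in WT and 15.0 in KO. Fzd10 had RING1B at 14.7 in Villin WT and no KO peak, and no PCGF6 peak. Among coreceptors, Lrp5 had PCGF6 at 20.8 in WT, which was lost, and no RING1B in crypts. The R-spondin receptor genes Lgr4 and Lgr6 had neither PCGF6 nor RING1B in crypts, and Lgr6 had H2AK119ub1 in all 4 lists (13.1 to 22.2).

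Among the secreted inhibitors, Notum, whose product inactivates Wnts by removing their lipid, had RING1B in all 4 crypt lists. The scores were 25.1 and 14.1 in AhCre WT and KO and 25.8 and 12.5 in Villin WT and KO, so the KO score was lower in both lines. Its H2AK119ub1 scores were 30.0 and 44.4 in the AhCre line and 21.5 and 15.8 in the Villin line. Sfrp2, a secreted Wnt-binding protein, had RING1B at 10.1 in AhCre KO and at 18.2 in Villin WT, and no peak in AhCre WT or Villin KO. Sfrp5 of the same family lost a PCGF6 peak of 15.7 and had H2AK119ub1 in all 4 lists, from 11.7 to 33.3. Dkk1, whose product blocks LRP coreceptors, and its relatives Dkk2 and Dkk3 had no peak in any of the 14 crypt lists. Rspo1 was the R-spondin gene with H2AK119ub1, at 12.2 and 11.5 in the AhCre line and 10.2 and 15.0 in the Villin line.

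Of the regulators, Ctnnb1, which encodes β-catenin, and Znrf3 had strong PCGF6 peaks. The PCGF6 score was 64.7 in WT and 27.1 in KO at Ctnnb1, and 69.9 and 17.4 at Znrf3. Both peaks passed the limit in KO crypts at a lower score. Rnf43 had PCGF6 at 24.1 and Apc at 13.2 in WT. The Apc peak was lost, and the Rnf43 peak overlapped a KO peak outside the window. The Rnf43 peak lay at a gene end and not within 1 kb of a listed start site. RING1B at Znrf3 was 16.4 in Villin WT with no KO peak. Nkd1, a feedback inhibitor that binds Dishevelled, had RING1B at 16.3 and 14.1 in the AhCre line and 10.4 and none in the Villin line. It was also the regulator gene with H2AK119ub1 in all 4 lists, at 20.2 and 40.3 in the AhCre line and 27.8 and 20.6 in the Villin line. These Nkd1 peaks lay at a gene end, and none lay within 1 kb of its listed start site.

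Lef1 (chr3:131110297-131224357) had the strongest RING1B peaks of all members in each of the 4 crypt lists. RING1B there scored 147 in AhCre WT, 96.8 in AhCre KO, 90.8 in Villin WT and 54.4 in Villin KO crypts. The peaks were 7455 and 7556 bp wide in AhCre and 7813 and 7568 bp wide in Villin crypts, so the widths were close while the scores were lower in KO in both lines. The PCGF6 peak of Lef1 had a score of 25.8 in WT and was lost, and it lay inside the wider RING1B peak. H2AK119ub1 scored 48.2 and 42.8 at Lef1 in AhCre crypts, with 30.0 and 18.4 in the Villin line. Tcf7, which encodes TCF1, had the second strongest PCGF6 peak of the members, 189 in WT and 20 in KO crypts. Its RING1B scores were 13.6 and none in the AhCre line and 21.9 and 11.4 in the Villin line. These are different places, because the AhCre RING1B peak lay with the PCGF6 peak upstream of the start site and the Villin peaks lay over the start site. Tcf7l1, the mainly repressive TCF3, had RING1B at 16.3 and 10.8 in the AhCre line and 17.1 and 14.8 in the Villin line, and no PCGF6. Tcf7l2, the main TCF of the intestinal epithelium, had a PCGF6 peak of 11.8 that was lost, and neither RING1B nor H2AK119ub1.

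**Figure D3:**
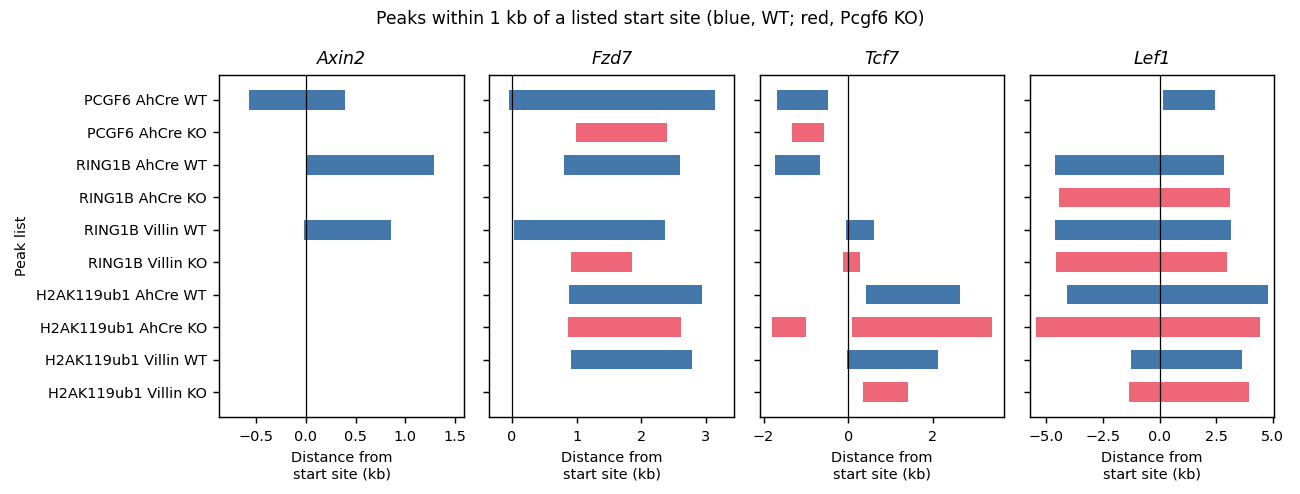
Extent of the peaks around Axin2, Fzd7, Tcf7 and Lef1 in 10 crypt lists (rows), as distance from the most upstream start site that the peaks are near (x axis, kb, positive into the gene), with WT in blue and KO in red. At Lef1 the RING1B bars span the start site in all 4 lists, and at Axin2 no KO bar is present.

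Taking the 53 genes as a list, PCGF6 peaks were lost at 14 of the 21 members that had one in WT, and the same loss took 64.4% of all genes with a WT peak. Lost PCGF6 peaks belonged to 3 of 3 ligand, 7 of 10 receptor, 1 of 1 inhibitor, 1 of 4 regulator and 2 of 3 TCF/LEF genes. None was gained, against 0.152% of all genes without a WT peak. Fzd3, Fzd5, Fzd7, Znrf3, Ctnnb1 and Tcf7 had a peak in both genotypes, and at all 6 the KO score was lower, at a median of 0.226 of the WT score. Over all genes with both peaks that median was 0.415, and 98.2% had the lower score in KO. The 14 lost peaks had WT scores from 10.1 to 43.6, and the 6 retained ones from 40.9 to 197. When the WT list was cut by score to the length of the KO list, 2 members lost PCGF6 in place of 14. The cut drops the weakest WT peaks, so some of the 14 no longer had a peak to lose. The share of all genes was not counted at that length.

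RING1B peaks were lost at 5 of 16 members in AhCre crypts, namely Wnt3, Wnt10b, Fzd4, Fzd7 and Tcf7, where 44.7% of all genes with a WT peak lost theirs. Peaks were gained at Wnt2b, Wnt7b and Sfrp2, 3 of the 37 members without a WT peak and 0.782% of all such genes. The gained scores were 11.6, 10.8 and 10.1, and none remained at a score limit of 15. In Villin crypts RING1B was lost at 11 of 27 members, against 53.7% of all genes, and gained at none, against 1.31%. The 11 were Wnt6, Wnt7b, Wnt16, Fzd1, Fzd3, Fzd6, Fzd8, Fzd10, Sfrp2, Znrf3 and Nkd1. By these gene-end windows, no gene was in both lists of lost members. Of the 15 members with WT RING1B in both lines, 0 lost it in both, where 18.7% of all such genes did. By windows at the listed start sites, 2 of 12 members (Wnt6 and Axin2) lost it in both, against 18.9% of all such genes. With the WT list cut by score to the length of the KO list, 3 members (AhCre) and 7 (Villin) lost RING1B. The cut drops the weakest WT peaks, so fewer than 16 and 27 members had a peak to lose. The share of all genes was not counted at that length. Where RING1B was present in both genotypes, the KO score was lower at 11 of 11 members in AhCre (76.8% of all genes) and at 11 of 15 in Villin crypts (79.1%). The median ratio of KO to WT score was 0.656 and 0.833 for the members and 0.802 and 0.766 for all genes.

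**Figure D4:**
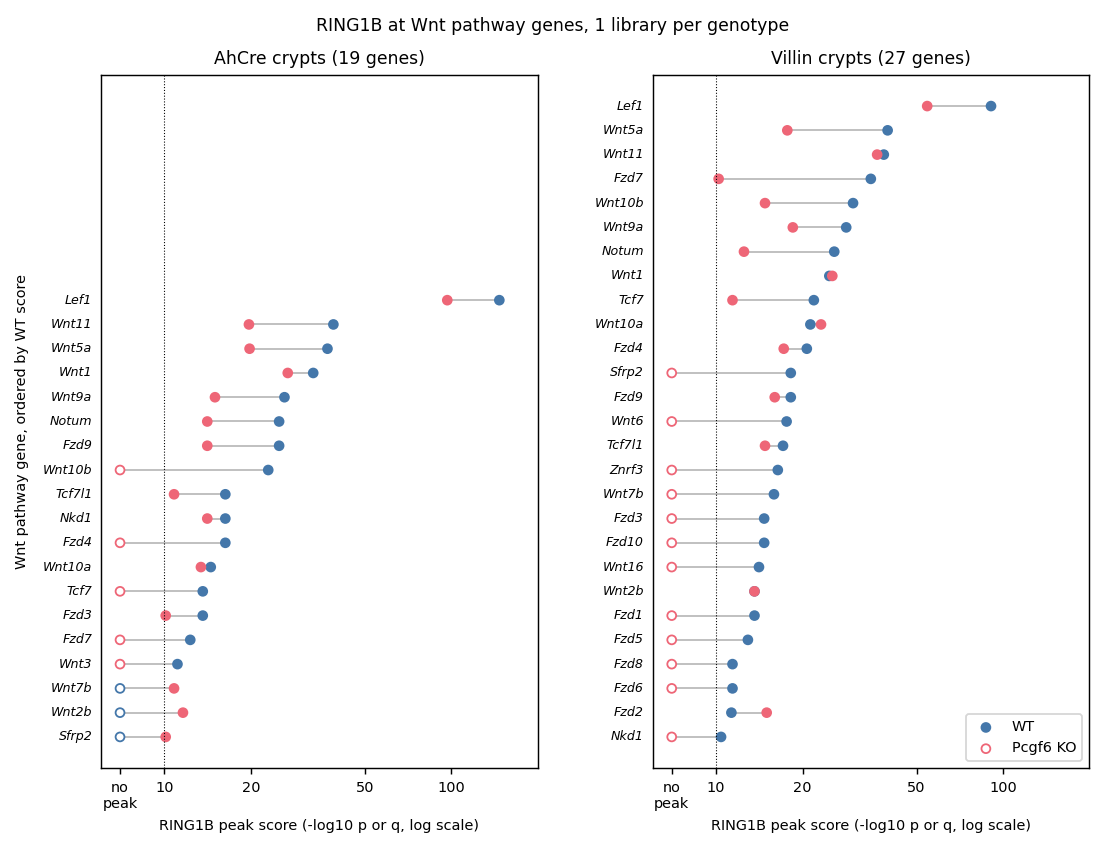
RING1B score (x axis, log scale, −log10 p or q) in WT (blue) and KO (red) crypts of the AhCre line (left, 19 genes) and the Villin line (right, 27 genes), with open circles at the left for no peak within 1 kb of a gene end and a dotted line at the list limit of 10. Lef1 is highest in both panels, and every gene with a WT score of 30 or more kept a KO peak.

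No member of the 32 with H2AK119ub1 lost it in AhCre crypts, where 12.8% of all genes with a WT peak did. In Villin crypts 3 of 29 lost H2AK119ub1 (29.3% of all genes). The 3 were Wnt5a (15.7 in WT), Fzd7 (15.2) and Fzd10 (10.5). At a score limit of 15, the Villin counts were 6 lost of 23 and 4 gained, and 1 member lost H2AK119ub1 in AhCre crypts. The share of all genes was not counted at that limit. Wnt5a kept a RING1B peak of 17.7 in Villin KO crypts. H2AK119ub1 was gained at Axin2 (12.2) and Znrf3 (14.5) in AhCre KO, where 4.26% of genes without a WT peak gained one, and at Wnt5b (11.4) in Villin KO crypts (1.81%). KO scores were lower at 15 of 31 members in AhCre and at 14 of 26 in Villin crypts, with median ratios of 1.03 and 0.973. Over all genes with both peaks, 38.1% (AhCre) and 61.1% (Villin) had the lower score in KO, and the median ratios were 1.1 and 0.925.

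Most of the lost peaks had low WT scores. Of members with a WT PCGF6 score of 10 to under 20, 7 of 7 lost it (91.5% of all genes), of those at 20 to under 40 it was 6 of 7 (58.3%), and at 40 or more 1 of 7, Fzd9 (13%). For RING1B in AhCre crypts these counts were 4 of 8 (65.0%), 1 of 7 (17.7%) and 0 of 1 (1.83%). For RING1B in Villin crypts they were 11 of 16 (69.0%), 0 of 10 (24.2%) and 0 of 1 (8.16%). The 10 Villin members with middle scores, Wnt5a, Wnt11, Fzd7, Wnt10b, Wnt9a, Notum, Wnt1, Tcf7, Wnt10a and Fzd4, thus kept a KO peak. H2AK119ub1 was lost in AhCre crypts at 0 of 5 (22.2%), 0 of 21 (0.337%) and 0 of 6 (0.00%) members. In Villin crypts it was lost at 3 of 19 (37.0%), 0 of 9 (3.95%) and 0 of 1 (0.00%). CTCF was lost at 3 of 4 members with a score under 20 (58.3%) and at 0 of 9 at 40 or more (0.163%), and no member lay between (10.1%). RAD21 was lost at 7 of 7 (70.7%), 1 of 2 (22.4%) and 0 of 5 (2.40%). H2AK119ub1 peaks of members were strong within their list, at a median score percentile of 90.8 in AhCre WT against 72.2 for all genes with a peak.

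**Figure D5:**
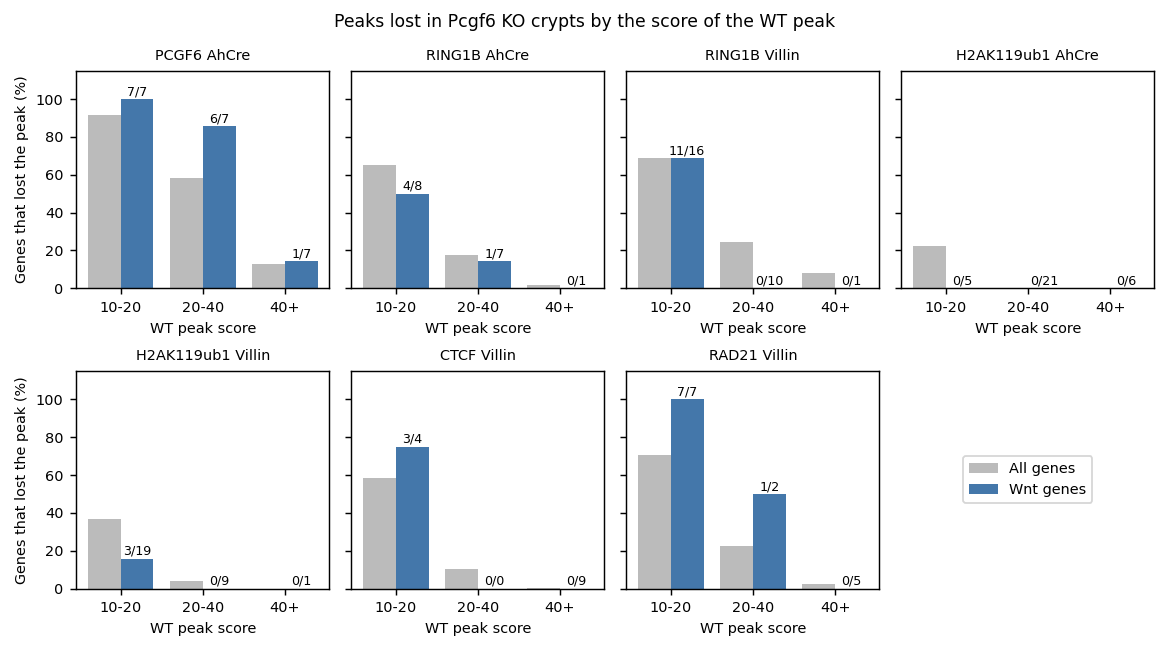
Share of genes that lost their WT peak (y axis, percent) by class of WT score (x axis) in 7 comparisons, for all genes with a WT peak (grey) and the Wnt genes (blue, with counts above the bars). In each panel the grey bars fall from the lowest to the highest class, and the RING1B losses of the Wnt genes in Villin crypts (11 of 16) lie in the lowest class.

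At 7 members PCGF6 and RING1B lay together in AhCre WT crypts (4.84% of all genes), namely Wnt10a, Fzd3, Fzd4, Fzd7, Fzd9, Tcf7 and Lef1. Every RING1B peak in the windows of these 7 overlapped a PCGF6 peak. RING1B was lost in AhCre KO crypts at 3 of them (Fzd4, Fzd7 and Tcf7) and present at the other 4. Of all genes with a WT RING1B peak, 44.7% lost it, so 3 of 7 is near that share. Overlap and loss were not counted over all genes with both proteins. Fzd4 lost both peaks. Fzd7 and Tcf7 lost the RING1B peak and had a PCGF6 peak of lower score in KO. Wnt10a, Fzd9 and Lef1 lost the PCGF6 peak and kept a RING1B peak, and Fzd3 had both peaks in KO. PCGF6 with H2AK119ub1 was found at 11 of the 21 members with WT PCGF6, against 17.2% of all genes with WT PCGF6. By the gene ends, H2AK119ub1 in all 4 crypt lists without RING1B in any was found at 7 members (2.16% of all genes), namely Wnt3a, Wnt4, Wnt7a, Wnt9b, Lgr6, Sfrp5 and Rspo1. For Wnt9b this rests on the peak near Wnt3, because its gene ends miss its start site. The Wnt9b start site had H2AK119ub1 at 22.9 and 23.2 in AhCre WT and KO. In Villin WT and KO it had H2AK119ub1 at 21.2 and 25.4. RING1B lay there at 15.0 in AhCre WT. Both marks in all 4 lists each were found at 8 members (2.19%), that is the 9 with RING1B in all 4 lists except Wnt5a.

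The gene table gives no strand, and for some members the gene ends are not where transcription starts. The windows were therefore also set at the listed start sites of 36 members. Axin2, a feedback inhibitor and a widely used reporter of Wnt signalling, had no PCGF6 or RING1B peak at its gene ends. At its start site PCGF6 had a score of 16.1 in WT, and RING1B had 11.1 in AhCre WT and 17.1 in Villin WT, with no KO peak in any of these 3 comparisons. Its start site carried no H2AK119ub1 peak in the 4 crypt lists. The start site of Wnt6 had RING1B at 10.0 in AhCre WT and 15.2 in Villin WT, and neither KO list had a peak there. Wnt9b had PCGF6 at 14.8 and RING1B at 15.0 in AhCre WT, both lost, at a start site that its gene ends miss. At start sites, RING1B was lost in AhCre crypts at 8 of 14 members (46.2% of all genes with a WT peak there) and in Villin crypts at 6 of 18 (54.7%). Axin2 and Wnt6 were the 2 of 12 members that lost RING1B in both lines by this window, where 18.9% of all such genes did. PCGF6 was lost at 10 of 14 start sites (64.9%), and H2AK119ub1 at 0 of 25 in AhCre (13.1%) and 2 of 23 in Villin crypts (32.5%).

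ESC showed the Polycomb proteins at more of these genes. RING1B lay at 38 of 53 members in ESC (17.8% of all genes) and PCGF6 at 30 (22.7%). RING1B lay at 17 of 18 ligand, 10 of 14 receptor, 5 of 7 inhibitor, 3 of 3 R-spondin, 1 of 7 regulator and 2 of 4 TCF/LEF genes. The strongest ESC RING1B peaks were at Wnt7b (372), Lef1 (342), Wnt11 (341), Wnt1 (328) and Wnt5a (324). Of the 30 members with PCGF6 in ESC, 29 had RING1B there too, with Notum as the exception, and the share for all genes with ESC PCGF6 was 49.8%. Of the 38 members with ESC RING1B, 23 had RING1B in WT crypts of either line (44.8% of all genes with ESC RING1B) and 26 had H2AK119ub1 in WT crypts of both lines (36.3%). Of the 15 without ESC RING1B, 5 had RING1B in WT crypts (8.93%), namely Fzd5, Fzd10, Notum, Znrf3 and Tcf7l1.

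By windows at the gene ends, PCGF6 was found in ESC and not in WT AhCre crypts at 16 members (6.89% of all genes), of which 11 were ligands: Wnt1, Wnt2, Wnt3, Wnt3a, Wnt4, Wnt5b, Wnt7a, Wnt7b, Wnt9a, Wnt9b and Wnt11. At their listed start sites, however, Wnt5b and Wnt9b had crypt PCGF6 peaks of 10.9 and 14.8. The other 5 were Sfrp1, Sfrp2, Notum, Rspo2 and Nkd1. It was found in crypts and not in ESC at 7 members (24.1% of all genes), which were Fzd5, Lrp5, Rnf43, Znrf3, Ctnnb1, Apc and Tcf7l2. None of these 7 is a ligand or secreted inhibitor. At 14 members it lay in both (15.8%), of which 8 were Frizzled genes. Crypt and ESC lists come from 1 library each, and these differences were not tested.

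By windows at the gene ends, CTCF lay at 13 members in Villin WT crypts (25.5% of all genes) and RAD21 at 14 (22.2%), both near the background. At the listed start sites of 36 members, CTCF lay at 11 (20.2% of all genes with a listed start site) and RAD21 at 15 (19.6%). RAD21 was lost there at 7 of the 15 (49.4%), among them Axin2 (18.6) and Wnt9b (11.4). The counts that follow are for the gene ends. CTCF was strong at Rnf43 (240 in WT, 273 in KO), Wnt7a (186 and 170), Wnt10a (184 and 154) and Tcf7l1 (161 and 176). CTCF was lost at Fzd5 (12.7), Fzd7 (11.5) and Apc (16), 3 of 13 members (12.0% of all genes), and gained at none (1.26%). RAD21 was lost at 8 of 14 members (41.1%), namely Wnt1, Wnt6, Wnt10a, Fzd4, Lgr4, Lgr6, Notum and Tcf7l2, and gained at none (1.62%). With lists of equal length, or at a score limit of 15, RAD21 was lost at 5 members, and both settings also remove weak WT peaks. RAD21 lay at 6 members in KO crypts (14% of all genes) with the 1 kb window and at 13 with a window of 2 kb. Shares of all genes were not counted at these changed settings. The lost RAD21 peaks had WT scores from 10.6 to 21.1, and the 6 retained ones from 26.1 to 102. RAD21 with no CTCF peak was found in WT at Fzd4, Lgr4, Notum and Tcf7l2, 4 of 53 members and 6.55% of all genes. The RAD21 list was shorter in KO (17762 peaks) than in WT (20653).

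A list of 69 other pathway genes gave the setting. In AhCre crypts PCGF6 was lost at 26 of 35 (64.4% of all genes) and RING1B at 7 of 13 of them (44.7%), and RING1B was gained at 3 (0.782%). The 7 were Lgr5 (13.2 in WT), which marks crypt stem cells, the Dkk receptor gene Kremen2 (12.3), the Wnt5a receptor gene Ror2 (11.5), the Dishevelled gene Dvl2 (26.1), the corepressor gene Tle1 (14.5), Dact1 (19.1) and Ephb3 (14.5). In Villin crypts RING1B was lost at 8 of 19 (53.7% of all genes), which were Frzb (15.6), Kremen1 (11.4), Kremen2 (16.9), Dvl2 (15.2), Tle1 (13.6), Celsr3 (14.7), Daam1 (14.7) and Dact1 (10.4), and gained at 1 (1.31%). Kremen2, Dvl2, Tle1 and Dact1 therefore lost RING1B in both lines, 4 of the 9 with WT RING1B in both (18.7% of all genes). Among the 4 with RING1B in all 4 lists, the homeobox gene Hhex had scores of 60.1 and 67.9 in the AhCre line and 78.2 and 67.4 in the Villin line. The planar polarity gene Celsr2 had 30.6 and 18.1 in the AhCre line and 39.4 and 15.6 in the Villin line. The crypt transcription factor gene Sox9 had 15.6 and 16, then 14.1 and 12.4, and the corepressor gene Tle4 had 14.5 and 10.1, then 19.5 and 15.7. H2AK119ub1 was lost at 0 of 29 of these other genes in AhCre (12.8% of all genes) and at 8 of 23 in Villin crypts (29.3%). Lgr5 had a RING1B peak of 19.9 in Villin KO, which overlapped a WT peak outside the window and was not counted as gained. It kept H2AK119ub1 in all 4 lists, from 19.2 to 30.0.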

How the data were processed

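ChIP-seq peak lists of 16 samples were used as deposited, and the 6 input samples, which come without a list, were left out. Each row holds a position and a score, which is the −log10 p or q value that the authors' peak caller gave the peak. Per the submitters' processing notes, the tools were MACS2 2.1.1 and Bowtie in versions 1.1.2 and 1.2.2, and the builds named are hg38, dm6 and mm10, with no role given. Settings are not given in the sources used here. Per the labels, WT input was the reference for peak calling and H2AK119ub1 chromatin held 5% Drosophila S2 chromatin, and no spike count was used. In the ESC samples 1 description line exchanges PCGF6 and RING1B, and the titles and antibody tags were followed. Lists had no other sample columns.

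Windows of 1 kb around both ends of 21887 RefSeq genes (GRCm38.p6) were intersected with peaks, and WT and KO peaks were matched at 1 bp of overlap. The 7 comparisons were between WT and KO of 1 antibody and Cre line. The members and lists were chosen with earlier results of these data known. Values were to be printed for each member with RING1B in a crypt list or PCGF6 in WT AhCre crypts, for other pathway genes with RING1B in WT of both lines or lost in either, and promoters for up to 6 members. Lgr4, Lgr6, Axin2, Wnt5b, Wnt9b, Rspo1 and Sfrp5 were also described for values seen later. The counting was tested on altered copies of the lists with known losses. Promoters were matched by symbol for 36 members. The software was bedtools 2.31.1 and Python 3.11.15 with matplotlib 3.10.9, pandas 2.3.3 and numpy 2.4.6.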

Additional observations from a re-analysis of the deposited data

Results flagged for a closer look

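At 2 members RING1B went one way in AhCre crypts and the opposite way in Villin crypts. How many of all genes did so was not counted. Wnt7b gained a RING1B peak of score 10.8 in AhCre KO crypts and lost one of 15.9 in Villin KO crypts. Sfrp2 gained one of 10.1 in AhCre KO crypts and lost one of 18.2 in Villin KO crypts. Each group had 1 library, so the difference between the lines was not tested. Both gained scores lie just above the list limit of 10.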

How the results depend on the processing

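No paired analysis was possible because each group had 1 library, and no replicate could be left out. Requiring an overlap of 0.5 of the shorter peak changed 0 of 14 counts of lost or gained members by more than 1.5 times. A score limit of 15 gave 4 members with RING1B in AhCre KO (14 at the limit of 10), 17 and 8 in Villin WT and KO (27 and 15) and 9 with RAD21 in WT (14). At that limit RING1B was gained in AhCre at 0 members (3), H2AK119ub1 was lost at 1 in AhCre (0) and 6 in Villin crypts (3) and gained at 4 in Villin crypts (1), and CTCF and RAD21 were lost at 1 (3) and 5 (8). A window of 2 kb gave 17 members with CTCF and 13 with RAD21 in KO (10 and 6), and H2AK119ub1 was lost at 1 in AhCre crypts. With the longer list cut to the length of the shorter, PCGF6 was lost at 2 members (14) and RAD21 at 5 (8). RING1B was then lost at 3 in AhCre (5) and 7 in Villin crypts (11). RING1B and H2AK119ub1 were each gained at 2 in Villin crypts (0 and 1). The cut drops the weakest peaks of the longer list, so some members no longer had a WT peak to lose. Without the overlap condition, H2AK119ub1 was lost at 1 and gained at 4 in AhCre (0 and 2) and gained at 3 in Villin crypts (1). The start-site window, chosen after seeing the data and run on 36 members, gave 8 losses of RING1B in AhCre (5 at their gene ends), 0 gains of H2AK119ub1 in AhCre (1) and 1 gain of CTCF (0). Outside the start-site window, shares of all genes were not counted at these changed settings. The cause of these changes was not tested. Depth is unknown, and a peak near a score of 10 can pass in 1 library and miss in another.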
